A study of Mus musculus with 3 samples.

Results

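The genes described here were 39 genes of DNA replication and S phase, chosen by name from the 43472 rows of the gene table without use of their values. Earlier results of these data were known at the time of that choice. They comprised the MCM2-7 helicase, origin licensing and helicase activation factors, replicative polymerases with their clamp and clamp loader, enzymes of nucleotide supply, Okazaki fragment maturation and chromatin assembly factors, and the transcription factors *E2f1* and *E2f2*. All 39 were found, and 38 reached 10 normalized counts in each of the 3 libraries, the level used here to call a gene detected. *E2f2* missed that level in replicate 2.

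RNA was sequenced from wounded primary fibroblasts, grown from the tail tip of C57BL/6 mice, after 5 h with the soluble skin micrograft (MG) and PD0325901, an inhibitor of the kinases MEK1 and MEK2. The 3 libraries, labelled MG-treated + PD0325901 replicate 1, 2 and 3, formed 1 group. The sources used here do not say which mouse or culture each came from, so the spread between libraries may be technical as well as biological. Untreated and MG-only libraries were not analysed here, and no effect of MG or PD0325901 could be tested. The question addressed was therefore how strongly the replication genes were expressed under this treatment and how well the replicates agreed.

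In G1, the origin recognition complex, Cdc6 and Cdt1 load the MCM2-7 helicase onto origins. On entry into S phase, the kinase Cdc7 and factors such as Cdc45 and GINS activate it, and polymerases then copy both strands. Genes for these proteins are classical targets of E2F transcription factors, which the retinoblastoma family of pocket proteins restrains in resting cells, and growth factors act on this switch partly through the ERK pathway. In cultured fibroblasts their transcripts follow the share of cells that are cycling. In bulk RNA, fewer cycling cells and less RNA per cell cannot be told apart.

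Sequencing depth was 22540518, 27037783 and 17244505 reads on genes in replicates 1, 2 and 3. Of 9 fibroblast markers all 9 were detected, with a summed level of 347294 to 512836 normalized counts. Among them replicate 2 stood apart for *Thy1*, at 2031, 15760 and 1652 in replicates 1, 2 and 3, for *Lum*, at 5073, 288.9 and 1164, and for *Dcn*, at 3661, 1723 and 3659. Only 1 of 5 keratinocyte, 1 of 5 leukocyte and 1 of 5 endothelial markers were detected, with summed levels of 34.4 to 81.6, 26.9 to 90.1 and 55.7 to 243.8. The detected ones were *Krt10*, at 80.8, 39.5 and 32.0 in replicates 1, 2 and 3, *Cd68*, at 22.6, 33.1 and 27.3, and *Egfl7*, at 69.5, 53.6 and 49.8. The leukocyte markers *Laptm5*, at 1.74, 4.93 and 36.7, *Tyrobp*, at 0, 2.11 and 15.4, and *Cd52*, at 0.87, 0.70 and 9.48, were highest in replicate 3. *Ptprc* was not, at 1.74, 0.70 and 1.19. The keratinocyte markers *Krt15* and *Krt1* were at 0 in all 3 libraries, and *Cdh5* and *Kdr*, which define endothelial cells, were at 0 in at least 1. *Tek*, of the same endothelial list, was high in replicate 2 at 6.95, 185.3 and 2.37. The part of these differences between libraries in the results on replication genes was not tested.

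The promoters of the replication genes were examined first, since an E2F motif is what many of these genes are known to share and the gene names did not use it. RefSeq promoter windows of GRCm38.p6, from 250 bases before to 50 bases after a transcription start, were held for 33 of the 39 genes. Those of *Gins1*, *Gins2*, *Gins4*, *Mcm4*, *Pole* and *Rfc2* had no entry. The letters TTTGGCGC, TTTCCCGC, TTTGGCGG, TTTCCCGG, TTTGCCGC and TTTCGCGC were searched on both strands as forms of the E2F motif. At least 1 of them was found in 16 of the 33 genes, or 48.5% (95% Wilson interval 32.5 to 64.8%), against 4.55% of 27025 genes with a promoter window and 8.15% of detected genes. Restricted to bases before the start, the share was 10 of 33, or 30.3%, against 3.73% of all and 6.68% of detected genes. With TTTGGCGC and its reverse complement alone, it was 6 of 33, or 18.2%, against 0.585% of all and 1.11% of detected genes. A match gives letters only and does not show that a factor was bound.

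The 10 genes with an upstream match are printed here because they carry this shared feature. Each sequence runs 5′ to 3′ on the gene's strand, with the E2F letters in capitals and positions counted from the listed start, the base before it being -1. For *Mcm7*, *Orc1*, *Cdc6*, *Gins3*, *Rfc3* and *Uhrf1*, the printed window lies at least partly within the gene or a longer transcript of it that starts further upstream. For *Pola1* a somewhat wider stretch was flagged in this way. Its printed window lies before the gene span used here, chrX:93304767-93632155 on the minus strand. In *Mcm5* and *Mcm6*, motifs of opposite strands overlap in their central GCGC.

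*Mcm5* (chr8:75109336-75109387, plus strand, -173 to -122): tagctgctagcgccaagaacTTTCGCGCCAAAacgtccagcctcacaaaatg
*Mcm6* (chr1:128359725-128359835, minus strand, -130 to -20): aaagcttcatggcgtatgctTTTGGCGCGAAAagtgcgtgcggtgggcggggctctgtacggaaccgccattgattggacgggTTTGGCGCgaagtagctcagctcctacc
*Mcm7* (chr5:138172030-138172059, minus strand, -176 to -147): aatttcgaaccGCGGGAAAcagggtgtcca
*Orc1* (chr4:108579416-108579445, plus strand, -38 to -9): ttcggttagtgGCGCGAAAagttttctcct
*Cdc6* (chr11:98908002-98908031, plus strand, -149 to -120): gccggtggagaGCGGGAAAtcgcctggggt
*Gins3* (chr8:95633507-95633536, plus strand, -52 to -23): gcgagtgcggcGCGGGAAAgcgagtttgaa
*Pola1* (chrX:93632275-93632304, minus strand, -149 to -120): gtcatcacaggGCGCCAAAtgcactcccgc
*Rfc3* (chr5:151651209-151651229, minus strand, -21 to -1): acgtcgcacgcTTTCGCGCtc
*Chaf1a* (chr17:56040352-56040399, plus strand, -64 to -17): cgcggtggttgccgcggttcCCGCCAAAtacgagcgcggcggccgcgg
*Uhrf1* (chr17:56304117-56304146, plus strand, -196 to -167): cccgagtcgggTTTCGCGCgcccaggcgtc

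The other 6 genes with a match, *Mcm3*, *Cdt1*, *Pola2*, *Pold1*, *Lig1* and *E2f2*, had it only after the start. The CCAAT box, searched as CCAAT on both strands, was found in 20 of 33 replication genes (60.6%). The share was 41.1% of all genes with a window and 43.0% of detected genes. Among 36 mitosis genes, taken as a neighbouring cell cycle list, 2 of the 29 with a window held an E2F motif (6.90%). A CCAAT box was held by 22 of 29 (75.9%). The E2F motif was also held by 16 of 44 further replication genes (36.4%) and 5 of 11 E2F and pocket protein genes (45.5%). Their Wilson intervals, 23.8 to 51.1% and 21.3 to 72.0%, overlap that of the 33 genes, so the motif was not particular to them. In G1 cyclin and CDK inhibitor genes it was 2 of 11 (18.2%). Before the start alone, the further replication genes stood at 22.7% and the E2F and pocket protein genes at 45.5%.

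**Figure D1:**
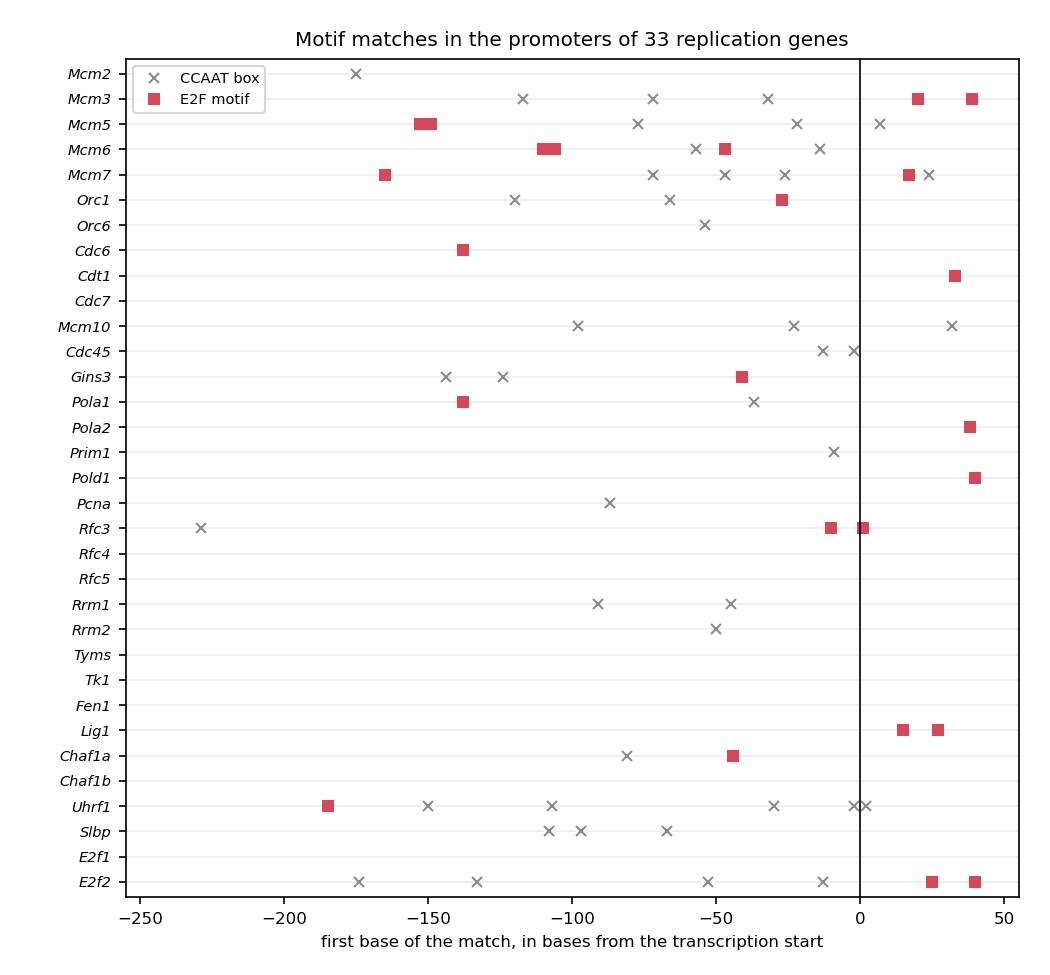
Positions of E2F motif matches (red squares) and CCAAT boxes (grey crosses) in the promoter windows of 33 replication genes. The horizontal axis gives the first base of a match in bases from the transcription start listed for that window. E2F matches were found in 16 of the 33 genes, before the start in 10 of them.

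Levels are given as normalized counts, which are reads divided by a size factor for each library, and are compared between genes per kilobase (kb) of annotated exon. The 39 genes spanned a wide range, with *Rrm2* 198.5-fold above *E2f2* per kb. The median of the gene means was 63.7 normalized counts per kb, against 107 over 11642 detected genes with an exon length. *Rrm2*, the regulated subunit of ribonucleotide reductase, stood highest at 1059 ± 329 per kb (SD, n = 3), above 92.2% of detected genes. *Pcna*, the sliding clamp, followed at 294 ± 26.7 per kb, then *Gins4* at 275 ± 24.0 per kb and *E2f1* at 225 ± 8.16 per kb. The lowest were *Pola1*, *Pole* and *E2f2*, at 14.6 ± 8.53, 12 ± 6.11 and 5.33 ± 3.22 per kb. Of the 38 neighbouring pairs in this order, 35 had ranges over the 3 libraries that overlapped. The 3 pairs that did not were *Rrm2* and *Pcna*, *Gins4* and *E2f1*, and *Fen1* and *Mcm3*.

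**Figure D2:**
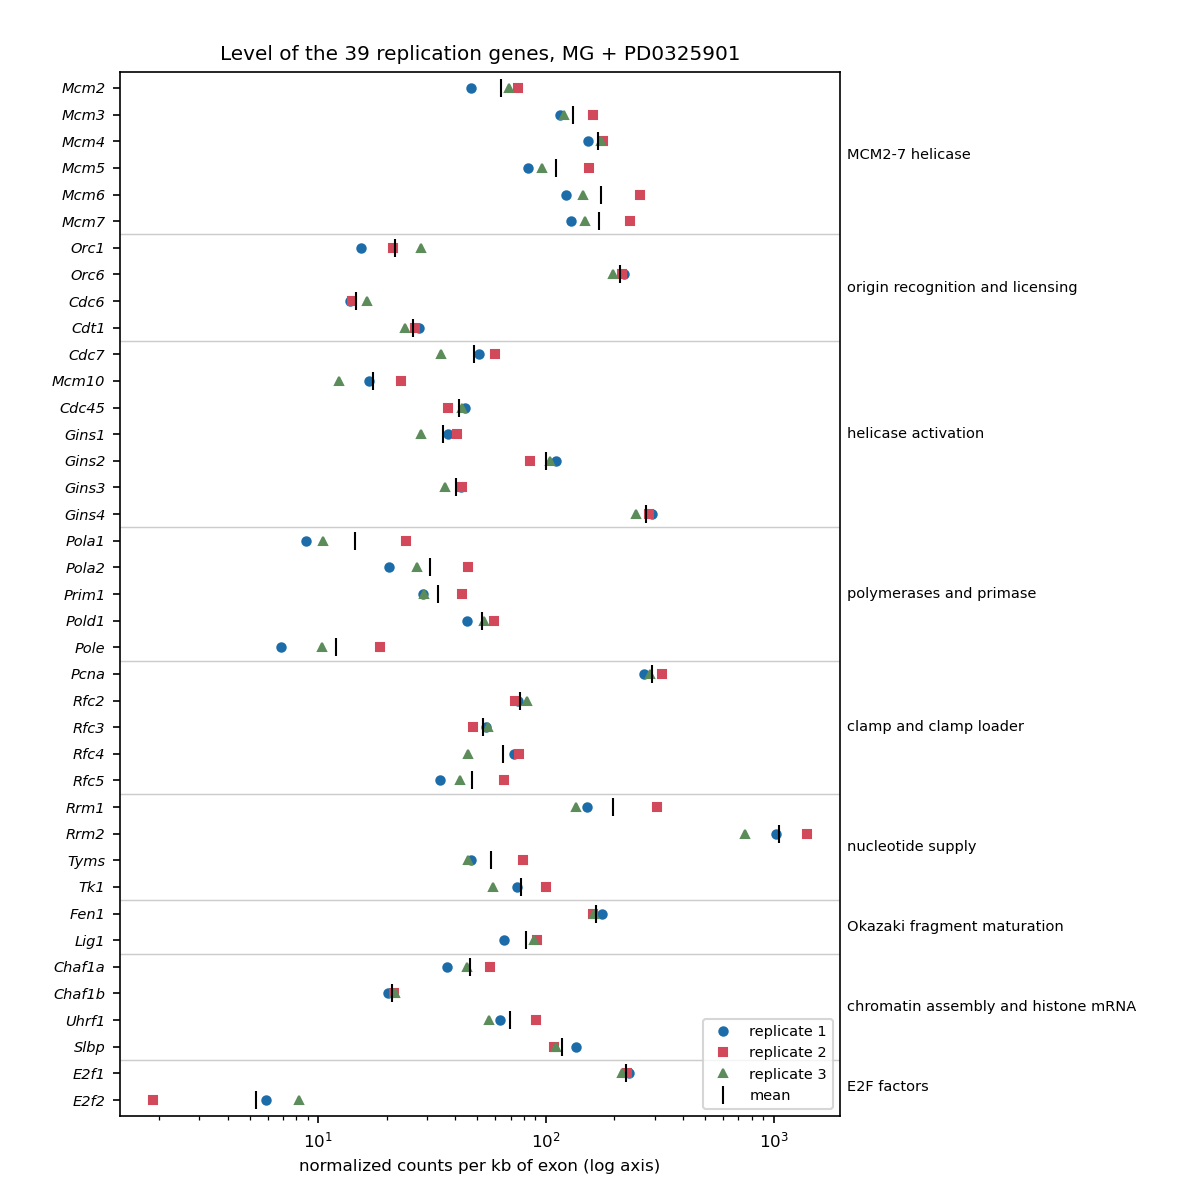
Level of each replication gene in normalized counts per kb of exon on a log axis, in replicates 1 (blue circles), 2 (red squares) and 3 (green triangles), with the mean as a black bar. *Rrm2* stands apart at the top, and *E2f2* is lowest, with its lowest value in replicate 2.

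Across the libraries most replication genes were higher in replicate 2, though not all. Of the 38 detected genes 25 were highest in replicate 2 (65.8%), where 40.6% of all detected genes were highest there. Replicate 1 was highest for 8 and replicate 3 for 5, against 31.5% and 27.9% of all detected genes. Lowest values fell in replicates 1, 2 and 3 for 18, 6 and 14 genes, against 34.5%, 37.3% and 28.3%. The median log2 ratio of a library to the mean of the other 2, on log2(normalized count + 1), was 0.37 in replicate 2, -0.15 in replicate 1 and -0.17 in replicate 3. Over all 12204 detected genes it was 0.03, -0.03 and 0.00. The spread itself was ordinary, with a median SD of 0.29 on the log2 scale against 0.30 for all detected genes. A range of more than 2-fold was found for 5 of 38, against a background of 21.6% of detected genes, and none of the 38 had such a range between replicates 1 and 3 alone.

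**Figure D3:**
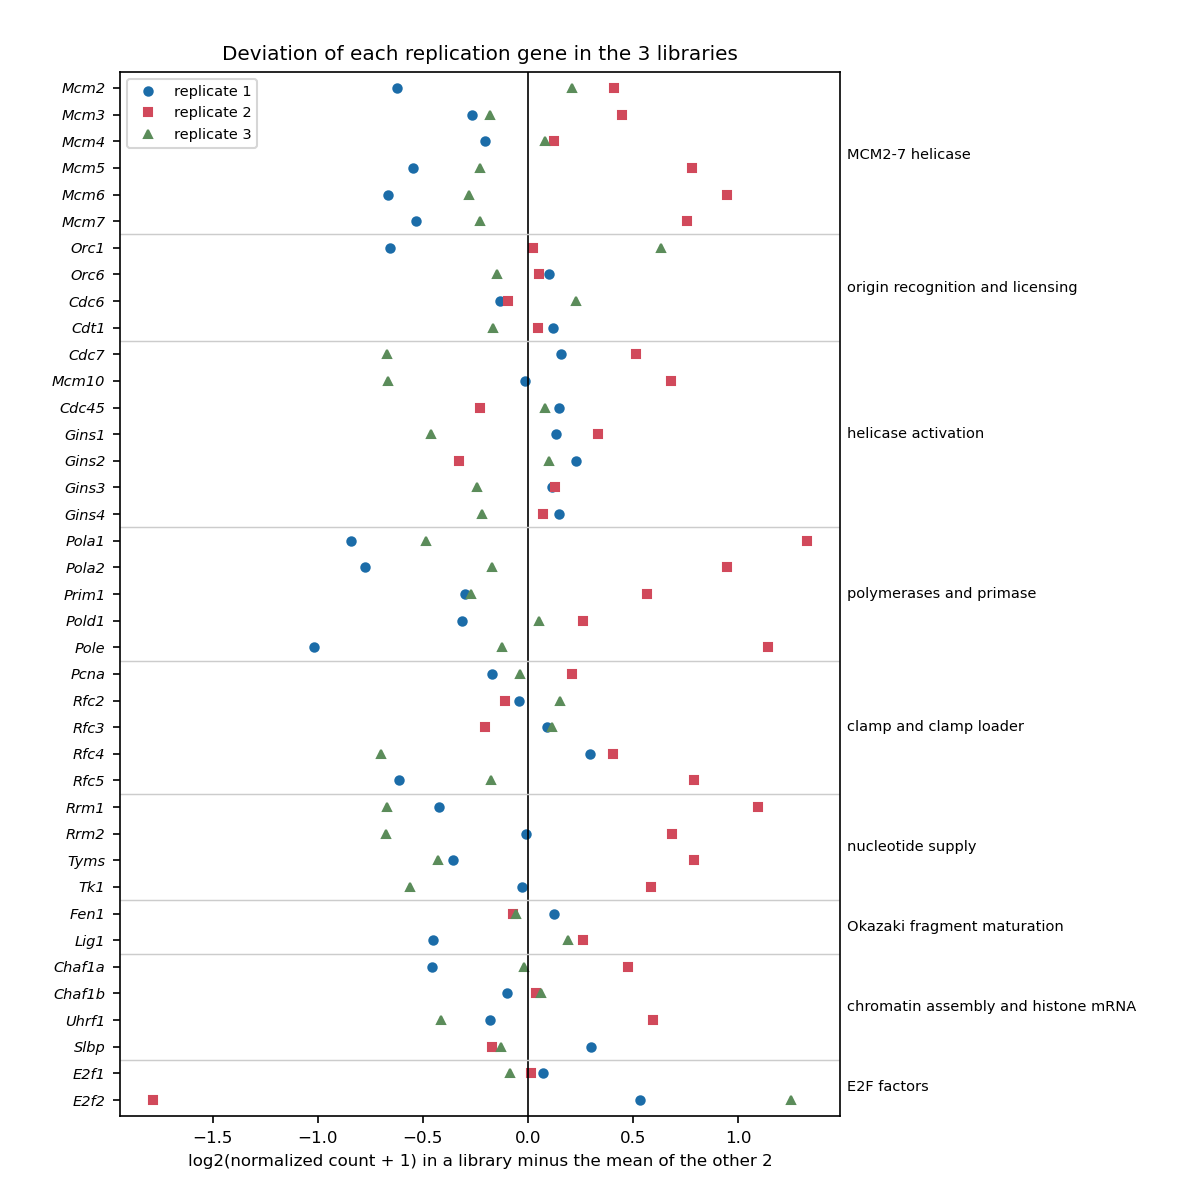
Deviation of each replication gene in each library, as log2(normalized count + 1) minus the mean of the other 2 libraries, ordered by role. Red squares (replicate 2) lie right of 0 for all genes of the MCM2-7, polymerase and nucleotide supply groups, and *E2f2* is the only gene far to the left in that library.

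The MCM2-7 helicase unwinds the template at the fork, and all 6 of its subunit genes were highest in replicate 2 and lowest in replicate 1. *Mcm6* (chr1:128331590-128359664, minus strand) had 569.6, 1203 and 681.5 normalized counts in replicates 1, 2 and 3. *Mcm7* had 570.5, 1035 and 656.6, and *Mcm5* had 332.6, 614.4 and 385.2. In these 3 genes replicate 2 stood clear of the other 2 libraries. Replicate 3 was 1.20-fold above replicate 1 for *Mcm6*, 1.15-fold for *Mcm7* and 1.16-fold for *Mcm5*. That difference went beyond counting error for *Mcm6* and *Mcm7* only. *Mcm3* followed the same order with a smaller step, at 432.4, 602.4 and 450.4. For *Mcm2* it was replicate 1 that stood low, at 325.6 against 524.9 and 478.8. *Mcm4* had the smallest range of the 6, 1.16-fold, at 549.7, 639.1 and 627.0. Their means per kb ran from 63.7 ± 15.0 for *Mcm2* to 175 ± 72.4 for *Mcm6*. The highest subunit was 3.08 ± 0.47 times the lowest within a library (SD, n = 3), although the hexamer holds each subunit once. With the longest transcript as the length this ratio was 2.11, so it rests in part on the gene models.

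Genes of origin recognition and licensing did not share the higher level in replicate 2, their median log2 ratio there being 0.03. *Orc1*, the largest subunit of the origin recognition complex, had 53.8, 74.0 and 98.4 normalized counts and was highest in replicate 3. *Cdc6*, which recruits the helicase together with *Cdt1*, had 72.1, 73.3 and 85.3, and *Cdt1* had 86.8, 83.8 and 75.9. *Orc6* was far more abundant, at 544.4, 532.7 and 486.0. Apart from *Orc1* these values were nearly level, and *Cdc6* and *Cdt1* were among the lowest genes per kb at 14.7 ± 1.40 and 26.2 ± 1.81. *Orc6* stood at 211 ± 12.5 per kb, and part of its exons overlaps *Vps35* on the opposite strand, a gene with 2186 to 4365 normalized counts.

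Helicase activation genes were mixed. *Cdc7*, the kinase that phosphorylates MCM proteins, had 212.7, 250.8 and 144.6 normalized counts, and *Mcm10*, which helps to start unwinding, had 128.5, 177.6 and 94.8. Both were lowest in replicate 3. *Cdc45*, which forms the active helicase together with MCM2-7 and GINS, had 155.4, 130.4 and 150.5. It was lowest in replicate 2, but no pair of libraries differed beyond counting error. The 4 GINS genes form a complex with 1 copy of each subunit, yet *Gins4* was 7.87 ± 0.94 times as high per kb as *Gins1* within a library (SD, n = 3). *Gins4* had 396.0, 381.9 and 334.2 normalized counts and *Gins1* only 56.4, 62.0 and 42.7. *Gins2* was lowest in replicate 2, at 452.4, 349.5 and 425.5, and *Gins3* was even at 114.6, 115.6 and 97.2.

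With no correction for exon length, the polymerase and primase genes deviated most. Their median log2 ratio was 0.94 for replicate 2, and all 5 were highest in replicate 2 and lowest in replicate 1. *Pola1*, the catalytic subunit of polymerase alpha (chrX:93304767-93632155, minus strand), had 78.2, 214.9 and 92.5 normalized counts. *Pole*, the catalytic subunit of the leading strand polymerase (chr5:110286306-110337474, plus strand), had 76.4, 209.3 and 116.2. *Pola2*, the accessory subunit of polymerase alpha, had 170.2, 377.7 and 225.2. Replicate 2 was thus 2.73-fold above replicate 1 for *Pola1*, 2.72-fold for *Pole* and 2.21-fold for *Pola2*. *Prim1*, the primase that lays down RNA primers, had 111.1, 166.3 and 112.6, and *Pold1*, of the lagging strand polymerase, had 218.8, 286.1 and 259.6. Within the polymerase alpha-primase complex the highest subunit was 2.63 ± 0.70 times the lowest per kb, with *Pola1* lowest in each library.

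*Pcna* and the genes of its loader, replication factor C, moved less. *Pcna* had 648.6, 774.4 and 691.0 normalized counts. *Rfc5* was the exception in the loader before correction for exon length, with 159.8, 305.8 and 195.6. *Rfc2* had 475.9, 461.5 and 521.5 and *Rfc3* had 198.0, 172.6 and 200.3. *Rfc4* was low in replicate 3, at 111.1, 117.0 and 69.9. These 4 loader genes were the most even of the complexes with 3 or more subunits, the highest being 1.93 ± 0.31 times the lowest per kb. *Rfc4* and *Rfc5* share exonic bases with abundant opposite-strand genes, *Eif4a2* at 4816 to 7543 and *Wsb2* at 4236 to 5080 normalized counts.

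All 4 nucleotide supply genes were highest in replicate 2 and lowest in replicate 3. *Rrm1*, the large subunit of ribonucleotide reductase (chr7:102441695-102469771, plus strand), had 1672, 3371 and 1491 normalized counts. *Rrm2* had 2828, 3895 and 2079. *Tyms*, which makes thymidylate, had 285.7, 485.5 and 276.2, and *Tk1*, the thymidine kinase of the salvage pathway, had 389.9, 517.9 and 304.6. Per kb *Rrm2* was 5.62 ± 1.07 times as high as *Rrm1*, the subunit it pairs with.

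Fork maturation and chromatin genes moved less than the polymerases, with a median in replicate 2 of 0.10 and 0.26. *Fen1*, the flap nuclease, had 426.4, 389.6 and 392.3 normalized counts, and *Lig1*, the ligase that seals Okazaki fragments, had 279.6, 388.9 and 376.9. *Chaf1a*, the large subunit of the histone chaperone CAF-1, had 326.5, 502.4 and 399.4, whereas its partner *Chaf1b* had 94.6, 100.8 and 101.9. *Uhrf1*, which brings maintenance methylation to new DNA, had 268.3, 384.0 and 240.6. *Slbp*, which binds the stem-loop of histone mRNAs, was highest in replicate 1, at 819.7, 658.1 and 672.0.

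The E2F genes differed in kind. *E2f1* (chr2:154559407-154569892, minus strand) was the steadiest of all 39 genes, at 731.1, 713.1 and 680.3 normalized counts, a range of 1.07-fold. *E2f2* (chr4:136172394-136196057, plus strand) was the least steady, at 28.7, 9.16 and 40.3. Its 9.16 stood for 13 reads, with a counting error of 27.7%, and the range was 4.06-fold.

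Differences between pairs of libraries were tested with a two-sided exact binomial test on reads, adjusted by the Benjamini-Hochberg method over every gene that had 10 or more reads summed over both. This compares 2 libraries beyond counting error and not 2 conditions. Replicate 2 differed from replicate 1 in 24 of 39 replication genes, fewer than the background of 69.1% of genes tested, but the direction was uneven. It was higher in 21 and lower in 3, against 36% and 33.1% of all genes. Replicates 2 and 3 differed in 21, against 62.6% of genes. Replicate 2 was the higher in 19 and the lower in 2, against 32.1% and 30.5%. Replicates 1 and 3 differed in 16, against 52%, with 9 higher in replicate 3 and 7 higher in replicate 1, against 26.5% and 25.5%.

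Replicate 2 was called above both others for 17 of 39 genes, against a background of 25.3%, and below both for 2, *E2f2* and *Gins2*, against 21.8%. The 17 were *Mcm3*, *Mcm5*, *Mcm6*, *Mcm7*, *Mcm10*, *Pola1*, *Pola2*, *Pole*, *Prim1*, *Pcna*, *Rfc5*, *Rrm1*, *Rrm2*, *Tyms*, *Tk1*, *Chaf1a* and *Uhrf1*. For *Pola1* the adjusted p of the exact test was 5.58e-19 against replicate 1 and 4.80e-12 against replicate 3, and for *Pcna*, the smallest step of the 17, it was 0.00035 and 0.043. No pair differed for 11 genes, *Orc6*, *Cdc6*, *Cdt1*, *Cdc45*, *Gins1*, *Gins3*, *Rfc2*, *Rfc3*, *Fen1*, *Chaf1b* and *E2f1*. These 11 were read less deeply, with a median of 145 normalized counts against 404 for the 17.

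A fold limit left few genes. *Pola1* and *Rrm1* were more than 2-fold above both other libraries in replicate 2, where 5.2% of genes were, and *E2f2* more than 2-fold below both, where 4.87% were. Together these were 3 of 39, against a background of 10.1%. None stood apart in replicate 1 or 3, where 4.26% and 3.58% of genes did. At 1.5-fold, 10 of 39 stood apart in replicate 2, against 22.9%, and 9 of these above both others, against 11.8%. Replicates 1 and 3 then had 1 gene each, against 11.8% and 8.82%. With both an adjusted p under 0.05 in the binomial test and a difference above 1.5-fold, 12 genes remained between replicates 1 and 2, against 36.6% of genes tested. There were 3 between 1 and 3, against 18.4%, and 16 between 2 and 3, against 30%. When the spread between the 3 libraries was used in place of counting error, in edgeR's exact test with a common dispersion over all genes, 0 of 39 were called in any pair. That dispersion came from the same 3 libraries, so the differences tested were part of the spread they were set against. Few genes passed that test at all, with 2.91% called between replicates 1 and 2, 0.272% between 1 and 3, and 2.66% between 2 and 3. At an unadjusted p under 0.05 that test gave 2 genes between replicates 1 and 2, 0 between 1 and 3, and 1 between 2 and 3. The share of all genes at this unadjusted limit was not counted, so nothing is read from these numbers.

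Exon length moved with the same contrast. Over all detected genes the median log2 ratio of replicate 2 rose from -0.45 to 0.33 from the shortest to the longest of 10 equal length classes. Spearman's rho between that ratio and exon length was 0.35 across 11639 detected genes and 0.45 across 38 replication genes, which share the same 3 libraries. *Pola1*, *Pola2*, *Pole* and *Rrm1*, with exon lengths of 8813, 8294, 11160 and 11012 bases, were among the longest. The 17 genes called above both others had a median length of 4669 bases, and the 11 called in no pair 3154. After the length and GC trend of all genes was removed, the replication genes kept a median of 0.41 in replicate 2 and 30 of 38 were highest there, against 39.3% of all genes.

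**Figure D4:**
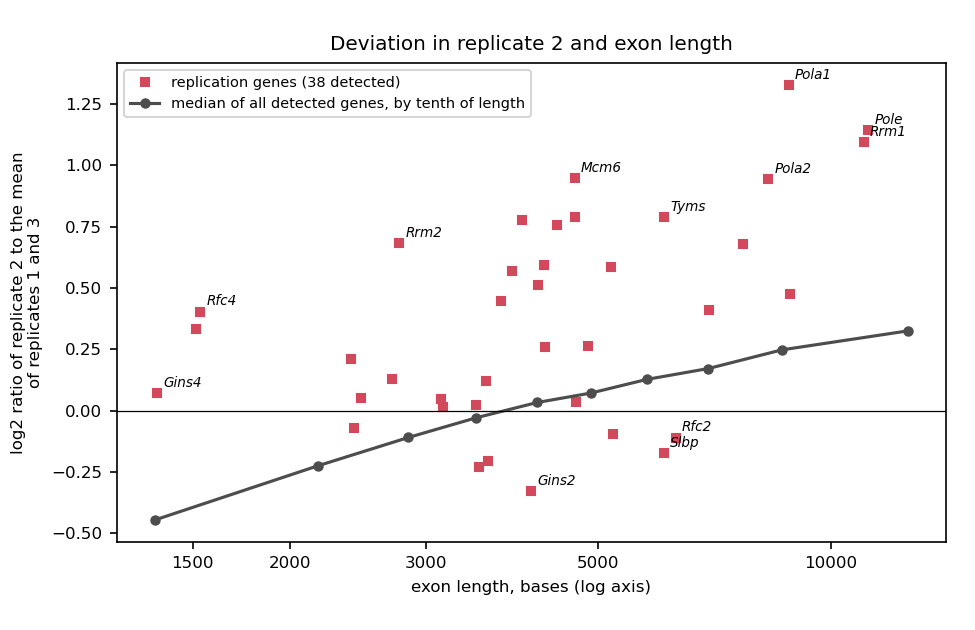
Log2 ratio of replicate 2 to the mean of replicates 1 and 3 against exon length in bases (log axis) for the 38 detected replication genes (red squares). The grey line joins the medians of all detected genes in 10 equal length classes and rises from -0.45 to 0.33, with most replication genes above it.

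The medians of genes with and without an E2F motif lay close together. The median log2 ratio of replicate 2 was 0.36 over the 16 genes with a match and 0.41 over the 17 without. The 16 include *E2f2*, which was not detected and stood at -1.78. Over the 15 detected genes with a match the middle value was 0.45, that of *Mcm3*. *Mcm5*, *Mcm6*, *Mcm7* and *Pola1*, whose upstream matches are printed with their sequences, were high in replicate 2, whereas *Cdc6*, *Gins3* and *Rfc3*, which also have one, were called in no pair. Among genes without a match in these windows, *Mcm10*, *Prim1*, *Pcna*, *Rfc5*, *Rrm1*, *Rrm2*, *Tyms* and *Tk1* were called above both others in replicate 2. *Orc6*, *Cdc45*, *Fen1*, *Chaf1b* and *E2f1* were called in no pair.

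Other cell cycle lists were measured in the same libraries. These lists, and those of the next paragraph, were chosen with earlier results of these data known. For 54 further replication genes, all detected, the median deviation of replicate 2 was 0.31 (log2), and 31 were highest there. Its widest ranges were those of *Topbp1*, a checkpoint and initiation factor, at 545.3, 1344 and 656.6 normalized counts, and *Mcm9*, at 44.3, 74.7 and 110. The 36 mitosis genes deviated more than the replication genes, with a median of 1.04 and 33 of 36 highest in replicate 2. Of these 29 had a range above 2-fold, led by the kinesin *Kif20a* at 427.2, 1597 and 374.5 and the checkpoint kinase *Bub1b* at 144.1, 557.3 and 201.5. In mitosis genes replicate 3 was the lowest library for 28 of 36, whereas in replication genes replicate 1 was lowest for 18 of 38 and replicate 3 for 14. Length and GC trend removal left the mitosis median at 0.95.

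Regulators upstream of S phase were also measured. For 15 E2F and pocket protein genes the median in replicate 2 was 0.24 and 10 of 15 were highest there, with *Tfdp1*, the partner of E2F proteins, at 990.8, 2064 and 1562 normalized counts and *Lin52* at 278.7, 152.2 and 184.9. For 14 detected G1 cyclin and CDK inhibitor genes of 15 it was -0.05, with 6 highest in replicate 2. Differences between the lists were not tested. There *Ccnd2*, cyclin D2, had 5004, 16296 and 10299, and *Cdkn2b*, the inhibitor p15, had 1972, 809.6 and 1190. These 2 genes thus deviated in opposite directions in replicate 2.

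**Figure D5:**
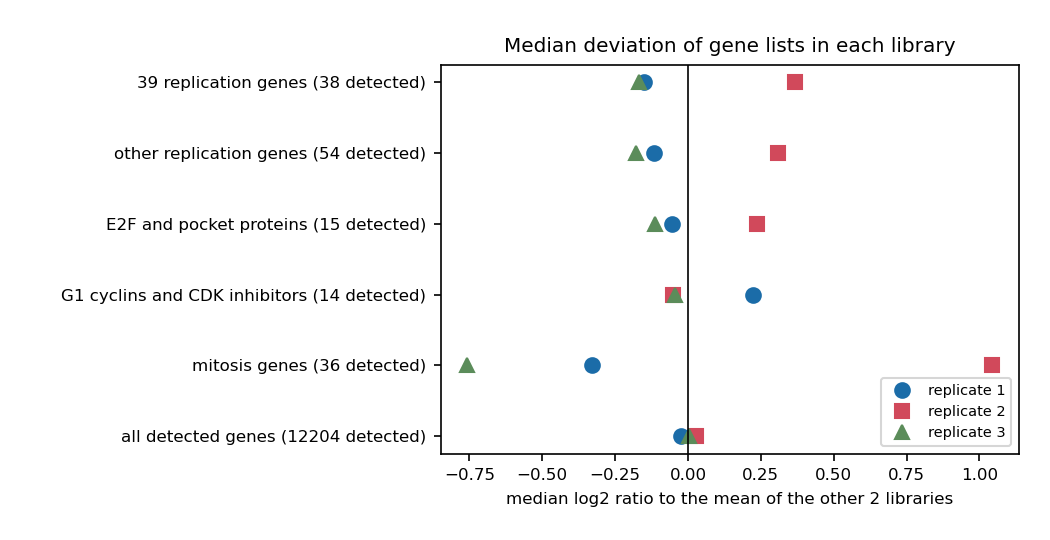
Median log2 ratio of each library to the mean of the other 2 for the replication genes, 4 other cell cycle lists and all detected genes. Replicate 2 (red squares) lies at 0.37 for the replication genes and at 1.04 for the mitosis genes, and all detected genes lie close to 0.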

How the data were processed

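The authors prepared stranded mRNA libraries, sequenced them and, per the labels, processed them with FastQC 0.11.5, TopHat2 2.0.13, SAMtools 0.1.19.24, HTSeq 0.5.3p3 and DESeq on mm10. The annotation and the strand setting of counting are not given in the sources used here. The deposited values are normalized counts, a signal of gene counts divided by a size factor for each library. Dividing by the smallest value of a library gave whole reads for 100% of values (tolerance 0.01). Size factors were 1.15, 1.42 and 0.844, so 3 reads correspond to 2.61, 2.11 and 3.56 normalized counts. A further 3 columns of per-sample values matched no label and were not used.

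Genes and gene lists were chosen with earlier results of these data known. All 39 genes were named, with each library's value. For other lists the 2 genes of widest range were named. Detected genes had at least 10 normalized counts in each library, and genes standing apart were sought among those with a mean of at least 10. Log ratios used a pseudocount of 1. Pairs were tested with the exact binomial test (scipy 1.17.1) at an adjusted p of 0.05, and with the edgeR 4.0.16 exact test as an alternative, with dispersion estimated over 12204 genes. Exon lengths and gene positions came from GENCODE M21 (GRCm38). Length and GC trends were fitted by lowess with a span of 0.3. Scripts were tested on simulated data. Binomial p-values cover counting error only, edgeR's also the spread between libraries, and Wilson intervals are over genes.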

Additional observations from a re-analysis of the deposited data

How the results depend on the processing

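No paired analysis was possible because the 3 libraries form 1 group. Under scaling to equal totals and TMM scaling the median ratios kept their direction, the binomial counts stayed within 1.5 times, and each gene's mean moved by less than its SD. The median gene mean of 348 normalized counts ranged from 281 to 358 when 1 library was left out, 281 being without replicate 2. The 5 genes with a range over 2-fold ranged from 0 to 5 in the same way, with 2 without replicate 1, 0 without replicate 2 and 5 without replicate 3. A 1.5-fold limit gave 18 of 38 genes, against 48.5% of detected genes, and 1, 10 and 1 genes apart in replicates 1, 2 and 3. Requiring more than 1.5-fold as well left 12 of the 24 genes called between replicates 1 and 2, 3 of the 16 between replicates 1 and 3, and 16 of the 21 between replicates 2 and 3. edgeR's exact test with the common dispersion called 0 in each of the 3 pairs, and 430, 39 and 381 genes of all those tested for replicates 1 and 2, 1 and 3, and 2 and 3. Without the 14 genes whose exons overlap other genes, 25 were left. Of these 16, 8 and 14 were called between replicates 1 and 2, 1 and 3, and 2 and 3. Over all genes tested, overlapping ones included, the shares called were 69.1%, 52% and 62.6%. This alternative was added after seeing the data, as was the length and GC trend. Measured on the longest transcript, the ratio of the highest to the lowest subunit per kb was 2.11 for MCM2-7, 6.35 for GINS, 3.94 for polymerase alpha-primase, 1.51 for CAF-1 (2.18 on all exons) and 3.53 for ribonucleotide reductase. On that length the lowest GINS subunit by mean was *Gins3* in place of *Gins1*. The highest by mean was *Mcm7* in place of *Mcm6* for MCM2-7, and *Pola2* in place of *Prim1* for polymerase alpha-primase. The E2F motif share was 30.3% upstream only and 18.2% for 1 core motif. The fewest reads in a library were 13 for *E2f2*, 36 for *Gins1* and 59 for *Rfc4*.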

Other observations

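Exons of 14 of the 39 replication genes overlap exons of another gene, on the opposite strand in all 14 and for *Mcm7* also on its own strand with the microRNA genes *Mir25* and *Mir93*. The opposite-strand partner was more abundant in several cases. *Tmem258*, which overlaps *Fen1*, stood at 1826, 1115 and 1505 (normalized counts of replicates 1 to 3), and *Ubxn6*, which overlaps *Chaf1a*, had 1179, 848.3 and 1304. *Cops6*, which overlaps *Mcm7*, had 2403, 2830 and 2750. Of 10 such partners with a mean of at least 10 normalized counts, 5 were highest in replicate 2 (*Ap4m1*, *Cops6*, *Vps35*, *Gse1* and *Afmid*), 3 in replicate 1 and 2 in replicate 3. Among the 24 detected replication genes with no such overlap, 18 were highest in replicate 2.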
